A study of Mus musculus with 8 samples.

Results

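The genes described here are 10 regulators of cortical area patterning, chosen by name: *Emx1*, *Emx2*, *Nr2f1*, *Nr2f2*, *Lmo3*, *Lmo4*, *Sp8*, *Dmrta2*, *Dmrt3* and *Lhx2*. All 10 were matched by Ensembl identifier among the 48709 genes of the files, and all 10 had enough counts to be tested together with 16287 genes in all. RNA-seq was done on the P1 (postnatal day 1) cortex of 4 control and 4 dcKO_Nex-Cre samples, each sequenced as 1 library from RNA of whole tissue. The dcKO_Nex-Cre mice carried floxed BAF155 (*Smarcc1*) and floxed BAF170 (*Smarcc2*), the genes of the scaffolding subunits of the BAF chromatin remodeling complex, together with Nex-Cre. Per the study's methods, the controls were heterozygous for both floxed alleles and had no Cre, and all mice were on a C57BL6/J background. Nex-Cre acts in newly born glutamatergic neurons of the cortex, so that progenitors, interneurons and glia of the mutant tissue keep both genes. Nothing in the labels says how many animals or litters the samples came from, so the p values measure the spread between these samples.

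The areas of the cortex are first laid out in progenitors of the ventricular zone, where signals from patterning centres set up graded levels of transcription factors. *Emx2*, *Dmrta2* and *Dmrt3* are high toward the caudal and medial side, *Nr2f1* is high caudally, and *Sp8* is high rostrally together with *Pax6*, while *Lhx2* is needed for cells to become cortex at all. *Nr2f1*, *Lmo3* and *Lmo4* are also expressed by regions in postmitotic neurons, *Emx1* is expressed in progenitors and neurons of the dorsal telencephalon, and *Nr2f2* and *Sp8* are also found in interneurons that come from the caudal ganglionic eminence. The files hold no positions within the cortex. They thus give the amount of each transcript in the whole cortex and not its gradient, and fewer cells of a type and less RNA per cell cannot be told apart.

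Levels are given as CPM, the usual count of a gene relative to the TMM-scaled total of its library. A control library held 18737230 to 24036915 counts and a dcKO_Nex-Cre library 17958641 to 35191912. Mitochondrial genes made up 6.87% of the counts of control replicate 2 and 6.15% of those of dcKO_Nex-Cre replicate 4. In the other libraries they made up 2.33% to 4.24%. *Smarcc2* fell to 56.9% of the control level (edgeR, adjusted p = 0.00267) and *Smarcc1* to 69.2% (edgeR, adjusted p = 0.0348), and for both genes the groups did not overlap. When 1 library at a time was omitted, *Smarcc1* kept its call in 2 of 8 cases (edgeR, adjusted p = 0.0193 to 0.132). The defining genes of cortical glutamatergic neurons were present in all libraries, *Neurod2* for instance at 232 ± 16.6 and 223 ± 17.4 CPM (SD, n = 4 each) in control and mutant. By their file names, the libraries were of lane tag 2 except for replicates 3 and 4 of dcKO_Nex-Cre, which were of lane tag 8. Markers of striatum, a tissue below the cortex, summed to 467 CPM in dcKO_Nex-Cre replicate 2, to 139.5 to 232 CPM in the control and to 119 to 179 CPM in replicates 1, 3 and 4 of the mutant. Results that rest on replicate 2 are therefore also given without it.

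*Emx1* was the only one of the 10 genes that passed an adjusted p of 0.05, and it fell to 65.9% of its control level in the dcKO_Nex-Cre cortex. At this threshold edgeR called 0.884% of all genes tested, 0.375% as higher and 0.51% as lower. At an unadjusted p under 0.05, 2 members were lower (*Emx1* and *Nr2f2*) and 1 was higher (*Lmo4*), where 7.05% and 6.59% of all genes were lower and higher. The same 3 genes were the members whose groups did not overlap, with 1 above and 2 below the control. Of all genes tested the groups did not overlap for 8%, with 3.99% above and 4.01% below. The other 7 genes had log2 fold changes between -0.13 and 0.14, and the median over the 10 members was 0.0022, beside 0.0043 over all genes.

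**Figure D1:**
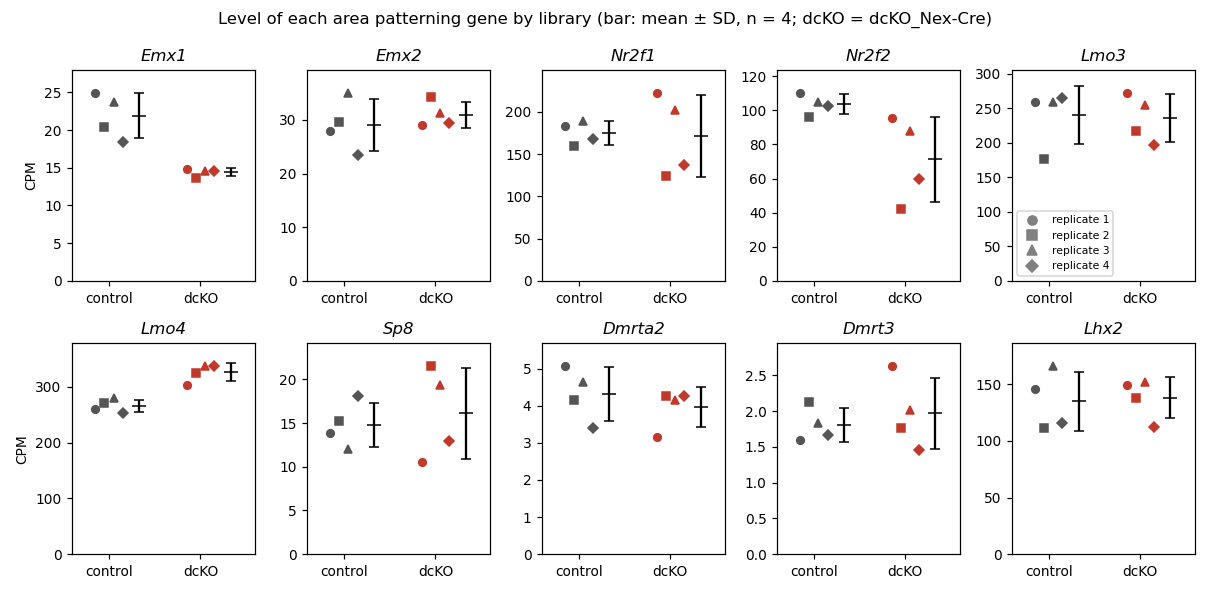
CPM (linear axis from 0) of each of the 10 genes in each library, control in grey and dcKO_Nex-Cre (dcKO) in red, with the replicate shown by the symbol and the mean ± SD (n = 4) as a bar. The groups are apart for *Emx1*, *Nr2f2* and *Lmo4* and overlap for the other 7 genes, and for *Nr2f1* and *Nr2f2* dcKO_Nex-Cre replicate 1 is the highest and replicate 2 the lowest of the red points.

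The 10 genes include pairs of related genes that differed in what was measured, so the question arises whether their reads can be told apart. Coding sequences of GENCODE M21 transcripts (GRCm38, the mm10 build named in the processing notes) were compared within each pair. For *Emx1* and *Emx2*, which encode homeodomain proteins, 77.1% of 293 aligned bases were identical and the longest identical run anywhere in their transcripts was 14 bases. A part of this stretch in exon 2 of 3 is printed to show how the differences are spread over it, with the bases that differ in capitals. It lies on the plus strand at chr6:85194088-85194222 for *Emx1* and at chr19:59461712-59461846 for *Emx2*.
Emx1: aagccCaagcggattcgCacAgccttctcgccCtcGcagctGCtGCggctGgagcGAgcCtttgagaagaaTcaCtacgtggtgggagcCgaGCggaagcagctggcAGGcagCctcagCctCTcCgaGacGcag
Emx2: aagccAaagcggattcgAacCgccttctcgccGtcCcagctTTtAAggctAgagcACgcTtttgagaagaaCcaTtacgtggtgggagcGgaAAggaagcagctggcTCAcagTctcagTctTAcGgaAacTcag
In these 135 bases the pair differs at 28, and no identical run exceeds 14 bases.

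*Nr2f1* and *Nr2f2*, which encode the orphan nuclear receptors COUP-TFI and COUP-TFII, are more alike, with 85.1% of 1014 aligned coding bases identical. The part in exon 1 of 3 is shown because it holds the longest identical run of their transcripts, 59 bases at its 5′ end. It lies on the minus strand at chr7:70359888-70360110 for *Nr2f2* and chr13:78198120-78198342 for *Nr2f1*, and capitals mark the bases that differ.
Nr2f2: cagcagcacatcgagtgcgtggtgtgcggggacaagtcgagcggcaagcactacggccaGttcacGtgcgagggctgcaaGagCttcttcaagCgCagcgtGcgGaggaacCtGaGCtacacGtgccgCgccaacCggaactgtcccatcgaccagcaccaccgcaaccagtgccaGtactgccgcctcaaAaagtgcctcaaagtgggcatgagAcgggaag
Nr2f1: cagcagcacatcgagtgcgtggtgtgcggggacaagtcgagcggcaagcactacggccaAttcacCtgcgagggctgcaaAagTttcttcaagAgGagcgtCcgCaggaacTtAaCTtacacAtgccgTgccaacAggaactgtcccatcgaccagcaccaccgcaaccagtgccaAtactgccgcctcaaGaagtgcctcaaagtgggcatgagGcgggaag
A read that lies wholly in the 59 bases fits both genes. The read length and the treatment of such reads are not given in the sources used here. The longest identical run was 24 bases for *Dmrta2* and *Dmrt3* and 13 bases for *Lmo3* and *Lmo4*.

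*Emx1* (ENSMUSG00000033726, chromosome 6 of GRCm38, 85187438 to 85204462, plus strand) encodes a homeodomain protein of the dorsal telencephalon. Its control libraries were at 25.0, 20.4, 23.8 and 18.4 CPM, and its dcKO_Nex-Cre libraries at 14.9, 13.6, 14.6 and 14.6 CPM. All 4 dcKO_Nex-Cre libraries lay below every control library and differed little from each other, with a coefficient of variation of 3.79% against 13.7% in the control. The log2 fold change was -0.60 (standard error 0.11, 95% interval -0.84 to -0.36, edgeR, adjusted p = 0.0332). The two-sided exact permutation test gave p = 0.0286, the smallest that 4 libraries against 4 allow. The dcKO_Nex-Cre libraries of both lane tags were at the same level, and the log2 fold change within lane tag 2 was -0.62 (edgeR, adjusted p = 0.0566). The size of the decrease moved little when libraries were left out (-0.68 to -0.53), but its adjusted p from edgeR lay between 0.0533 and 0.14 without any 1 of the 4 control libraries or dcKO_Nex-Cre replicates 1, 2 or 3, and was 0.0168 without dcKO_Nex-Cre replicate 4. No annotated gene of the files overlaps *Emx1*. It lies 29506175 bases from *Neurod6* (also named *Nex*), the locus that carries the Cre on the same chromosome. The controls had no Cre, so the deletion and the Nex-Cre allele with its linked sequence cannot be told apart.

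*Emx2* (ENSMUSG00000043969, chromosome 19, 59458372 to 59465357) is the second homeodomain gene of this family and a caudal area determinant. It was at 28.0, 29.5, 35.1 and 23.4 CPM in the control libraries and at 29.0, 34.3, 31.2 and 29.4 CPM in the dcKO_Nex-Cre libraries. The groups overlapped, with a log2 fold change of 0.095 and a 95% interval from -0.16 to 0.35 (edgeR, adjusted p = 0.743). *Emx2os*, which shares 264 of the 3002 exonic bases of *Emx2* on the opposite strand, had 6.83 CPM in the control and 6.30 CPM in the dcKO_Nex-Cre cortex on average.

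The ratio of *Emx1* to *Emx2* within a library does not depend on the scaling of the libraries. On the log2 scale it was -0.16, -0.53, -0.56 and -0.34 in the control and -0.96, -1.33, -1.10 and -1.01 in the dcKO_Nex-Cre libraries. Every dcKO_Nex-Cre library thus had less *Emx1* for its *Emx2* than every control library. The mean difference was -0.70, with p = 0.0286 by exact permutation (two-sided), again the lowest value possible. Ratios were examined for 4 pairs after the single genes had been seen, and adjusted over the 4 the exact permutation p was 0.0571. The difference stayed between -0.75 and -0.62 when each library was left out.

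*Nr2f2* (ENSMUSG00000030551, chromosome 7, 70351944 to 70366735, minus strand) was at 110, 96.3, 105 and 103 CPM in the control and at 95.5, 41.9, 87.7 and 59.8 CPM in the dcKO_Nex-Cre libraries. The groups did not overlap, although dcKO_Nex-Cre replicate 1 lay just below control replicate 2. Its mean was 68.8% of the control level, and its spread was wider in the mutant, with a coefficient of variation of 34.9% against 5.63%. The log2 fold change was -0.54 (standard error 0.21, 95% interval -0.999 to -0.076) and did not pass the threshold over all genes (edgeR, adjusted p = 0.294). The exact permutation test gave p = 0.0286. Without dcKO_Nex-Cre replicate 2, the library with the most striatal marker counts, the log2 fold change was -0.35 (edgeR, adjusted p = 0.428). *B130024G19Rik*, a transcript that shares 643 of the 8625 exonic bases of *Nr2f2* on the opposite strand, was at 2.63 ± 0.60 and 1.64 ± 0.42 CPM (SD, n = 4 each) in control and mutant (edgeR, adjusted p = 0.252). Reads in the shared bases cannot be told apart if strand was ignored in counting.

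*Nr2f1* (ENSMUSG00000069171, chromosome 13, 78188973 to 78199757, minus strand), which is needed for the sensory areas of the cortex, was at 184, 160, 190 and 167 CPM in the control. The dcKO_Nex-Cre libraries were at 223, 124, 202 and 137 CPM, so that 2 of them lay above and 2 below all control libraries. The means were 175 ± 14.0 and 172 ± 48.3 CPM (SD, n = 4 each). The log2 fold change was -0.029 with a 95% interval from -0.40 to 0.34 (edgeR, adjusted p = 0.954), and its sign turned with the library left out. The antisense gene *A830082K12Rik*, which shares 123 exonic bases with *Nr2f1*, was at 51.8 CPM in the control and 46.3 CPM in the dcKO_Nex-Cre cortex.

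**Figure D2:**
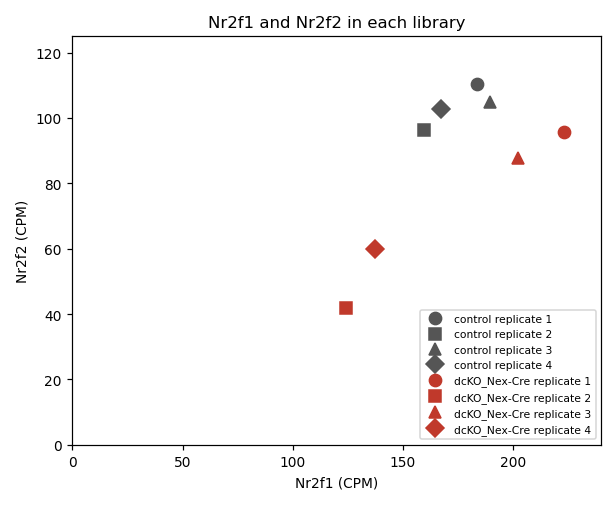
*Nr2f1* (x axis, CPM) against *Nr2f2* (y axis, CPM) in each library, control in grey and dcKO_Nex-Cre in red, with the replicate shown by the symbol. The dcKO_Nex-Cre libraries that were low in 1 gene, replicates 2 and 4, were low in the other as well, and all dcKO_Nex-Cre libraries have a lower *Nr2f2* to *Nr2f1* ratio than the control libraries.

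The pair was also read as a ratio within each library. The log2 ratio of *Nr2f2* to *Nr2f1* was -0.74, -0.73, -0.86 and -0.70 in the control and -1.22, -1.57, -1.20 and -1.20 in the dcKO_Nex-Cre libraries. All dcKO_Nex-Cre libraries thus had less *Nr2f2* for their *Nr2f1* than every control library. The mean difference was -0.54 (two-sided exact permutation test, p = 0.0286, adjusted over the 4 pairs p = 0.0571), and without dcKO_Nex-Cre replicate 2 it was -0.45. Markers of interneurons, some of which express *Nr2f2*, summed to 916 to 1089 CPM in the control and 820 to 983 CPM in the dcKO_Nex-Cre cortex. The 983 CPM were those of dcKO_Nex-Cre replicate 2, the library with the most striatal marker counts. The remaining mutant libraries were at 820 to 956 CPM. Of these 15 markers 4 were higher and 11 lower, where 50.9% of all genes had a log2 fold change above 0. None passed the adjusted threshold, and 1 was lower at an unadjusted p under 0.05 in edgeR, beside 7.05% of all genes. Their log2 fold changes ran from -0.84 to 0.19. Those at the head of the list were *Gad1* at 132 and 116 CPM, *Gad2* at 71.8 and 71.1 CPM and *Slc32a1* at 29.9 and 27.5 CPM in the 2 groups. None of the markers was at 0. Their part in the level of *Nr2f2* was not tested.

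**Figure D3:**
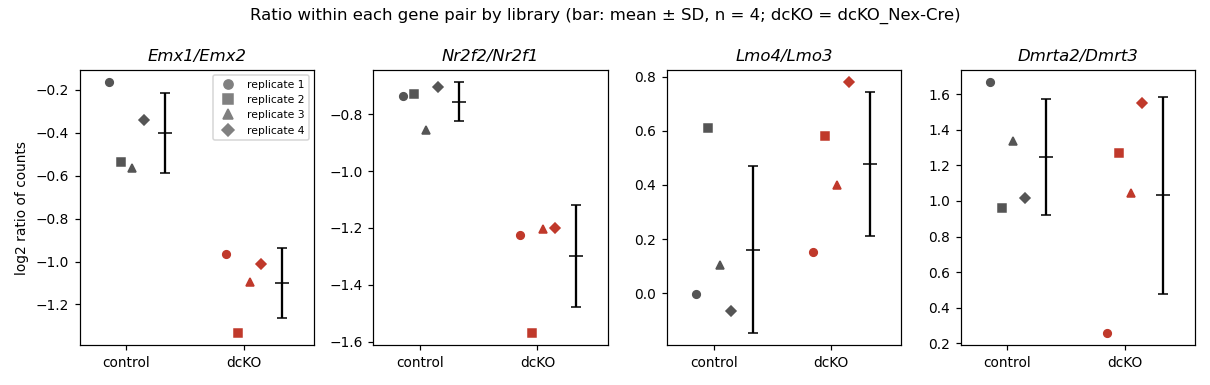
Log2 ratio of the counts of 2 related genes in each library for 4 pairs, control in grey and dcKO_Nex-Cre (dcKO) in red, with mean ± SD (n = 4) as a bar and a separate y axis for each pair. The groups are apart for *Emx1/Emx2* and *Nr2f2/Nr2f1* and overlap for *Lmo4/Lmo3* and *Dmrta2/Dmrt3*.

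*Lmo4* (ENSMUSG00000028266, chromosome 3, 144188530 to 144205220, minus strand) encodes a LIM-only protein that binds the cofactor LDB1 and is expressed by regions in cortical neurons. It was at 259, 270, 279 and 253 CPM in the control and at 303, 325, 337 and 338 CPM in the dcKO_Nex-Cre libraries, where the mean was 123% of the control level. The groups did not overlap. The log2 fold change of 0.30 (standard error 0.073, 95% interval 0.13 to 0.46) had an adjusted p of 0.102 from edgeR and of 0.00206 from DESeq2's Wald test, so that the call depends on the tool. It was 0.25 within lane tag 2 (edgeR, adjusted p = 0.134), and limma-voom gave an adjusted p of 0.0866. With 1 library at a time omitted, the adjusted p from edgeR was under 0.05 in 1 of 8 fits. That was 0.0419 without dcKO_Nex-Cre replicate 4, a fit that called 625 genes higher and 650 lower over the whole table. In the other fits it was 0.0981 to 0.345. *Lmo4* had the smallest spread of the 10 genes in the control, with a coefficient of variation of 4.35%, and of 4.88% in the dcKO_Nex-Cre cortex.

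*Lmo3* (ENSMUSG00000030226, chromosome 6, 138362918 to 138581968), another LIM-only gene, was at 260, 177, 259 and 265 CPM in the control and at 273, 218, 255 and 197 CPM in the dcKO_Nex-Cre libraries. The groups overlapped, with a log2 fold change of -0.028 and a 95% interval from -0.34 to 0.28 (edgeR, adjusted p = 0.947). Control replicate 2 lay apart from the other control libraries, and without it the log2 fold change was -0.14 (edgeR, adjusted p = 0.651). The log2 ratio of *Lmo4* to *Lmo3* differed by 0.32 between the groups, whose libraries overlapped (two-sided exact permutation test, p = 0.171).

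The remaining genes are best known for their roles in progenitors. *Lhx2* (ENSMUSG00000000247, chromosome 2, 38339281 to 38369733), the LIM homeodomain gene that selects cortical identity, was at 146, 111, 166 and 116 CPM in the control and at 150, 138, 152 and 113 CPM in the dcKO_Nex-Cre libraries. Its log2 fold change was 0.032, with a 95% interval from -0.27 to 0.33 (edgeR, adjusted p = 0.936). *Sp8* (ENSMUSG00000048562, chromosome 12, 118846329 to 118852576), a zinc finger gene that acts with *Fgf8* at the rostral patterning centre, was at 13.9, 15.2, 12.04 and 18.0 CPM in the control and at 10.5, 21.6, 19.4 and 12.95 CPM in the dcKO_Nex-Cre libraries. The dcKO_Nex-Cre values of *Sp8* lay on both sides of the control range, with a 95% interval of the log2 fold change from -0.35 to 0.59. The log2 fold change of *Sp8* was 0.12 (edgeR, adjusted p = 0.829). Without dcKO_Nex-Cre replicate 2, the library with the most *Sp8*, it was -0.051 (edgeR, adjusted p = 0.946).

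*Dmrta2* (ENSMUSG00000047143, chromosome 4, 109978053 to 109983687) and *Dmrt3* (ENSMUSG00000042372, chromosome 19, 25610301 to 25623921), doublesex-related genes of the medial and caudal cortical primordium, had the lowest counts of the 10 genes, at 76 to 111 and 26 to 91 counts per library. *Dmrta2* was at 5.08, 4.16, 4.63 and 3.39 CPM in the control and at 3.16, 4.25, 4.16 and 4.26 CPM in the dcKO_Nex-Cre libraries. *Dmrt3* was at 1.601, 2.13, 1.83 and 1.67 CPM in the control and at 2.63, 1.76, 2.02 and 1.46 CPM in the dcKO_Nex-Cre libraries. Neither gene separated the groups. The 95% intervals of the log2 fold changes ran from -0.51 to 0.25 for *Dmrta2* and from -0.33 to 0.62 for *Dmrt3*. Among radial glia markers, *Pax6* was at 37.8 and 37.1 CPM, *Sox2* at 70.6 and 69.9 CPM and *Hes1* at 6.61 and 6.64 CPM in the control and the dcKO_Nex-Cre cortex. The groups did not overlap for 2 markers of this list, both lower in the mutant, which were *Fabp7* at 1582 and 1122 CPM (edgeR, adjusted p = 0.113) and *Hopx* at 24.8 and 19.6 CPM (edgeR, adjusted p = 0.131). The cell cycle genes of the list, *Mki67* at 36.1 and 47.2 CPM and *Top2a* at 69.6 and 88.5 CPM, overlapped (edgeR, adjusted p = 0.399 and 0.439). None of the 12 radial glia markers passed the adjusted threshold, and their sums overlapped, at 3022 to 3637 CPM and 2757 to 3411 CPM.

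**Figure D4:**
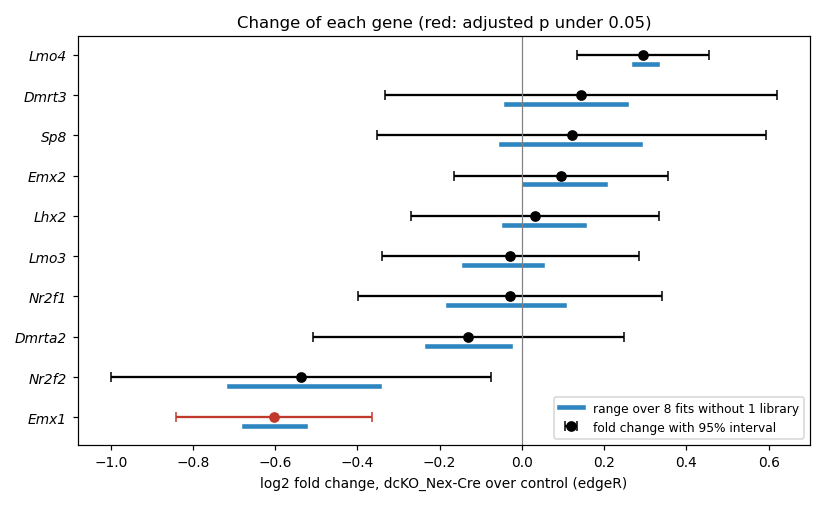
Log2 fold change of each gene, dcKO_Nex-Cre over control (x axis, edgeR), with its 95% interval in black or, for an adjusted p under 0.05, in red, and in blue the range when 1 of the 8 libraries at a time is omitted. The intervals of *Emx1*, *Nr2f2* and *Lmo4* exclude 0, and the blue ranges of *Nr2f1*, *Lmo3*, *Lhx2*, *Sp8* and *Dmrt3* cross it.

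Levels of different genes were compared per length, as RPKM, the CPM divided by the exon length in kilobases. This length joins the exons of all annotated transcripts of a gene. Which transcripts were expressed was not determined, and the order between genes depends on the length used. In the control, *Lmo4* was the highest at 75.2 ± 3.27 RPKM (SD, n = 4), followed by *Lmo3* at 46.8 ± 8.22, *Nr2f1* at 34.4 ± 2.75 and *Lhx2* at 30.7 ± 5.93 RPKM (SD, n = 4). Of these, *Lmo3*, *Nr2f1* and *Lhx2* overlapped with their neighbours in the order. A middle group of *Nr2f2*, *Emx1* and *Emx2*, at 12.01, 10.02 and 9.66 RPKM, overlapped among its neighbours as well. *Sp8* (3.25 RPKM), *Dmrta2* (1.48 RPKM) and *Dmrt3* (0.74 RPKM) followed without overlap. The dcKO_Nex-Cre cortex had the same order at the top and the bottom, whereas the middle group ran *Emx2* (10.3 RPKM), *Nr2f2* (8.26 RPKM) and *Emx1* (6.60 RPKM). There *Nr2f2*, at 4.86 to 11.1 RPKM, overlapped with both *Emx2* and *Emx1*. In the control the ranges of *Emx1* and *Emx2* overlapped, at 8.44 to 11.4 and 7.78 to 11.7 RPKM. In the dcKO_Nex-Cre cortex they were 6.24 to 6.81 and 9.66 to 11.4 RPKM and did not.

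The marker genes of cortical glutamatergic neurons, the cells in which Nex-Cre acts and which express *Emx1* and *Lmo4*, summed to 2083 to 2427 CPM in the control and 1866 to 2121 CPM in the dcKO_Nex-Cre cortex. Of the 12 genes 5 were higher and 7 lower, where 50.9% of all genes had a log2 fold change above 0. *Neurod6* alone passed the adjusted threshold, at 644 and 386 CPM. *Neurod6* is the locus that carries the Cre, and it is part of this sum, where its decrease makes up most of the fall in the mean. The controls had no Cre, so for its decrease the deletion and the Cre allele cannot be told apart. *Slc17a7* was at 82.2 and 56.5 CPM (edgeR, adjusted p = 0.28). No marker of this list was at 0, and its part in the level of *Emx1* was not tested. Of all the cell type lists summed, only the markers of oligodendrocyte precursors had sums that did not overlap, and these nearly touched. They were at 173 to 251.76 CPM in the control and 251.84 to 307 CPM in the dcKO_Nex-Cre cortex. All 5 of these markers were higher, where 50.9% of all genes had a log2 fold change above 0, and 1 passed the adjusted threshold.

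Other genes of area patterning were read from 4 lists. Of 23 other transcription factors of area patterning, all tested, none passed an adjusted p of 0.05 in edgeR. At an unadjusted p under 0.05, 3 were higher and 2 lower, beside 6.59% and 7.05% of all genes. The median log2 fold change of the 23 was 0.028. *Fezf2*, a determinant of subcerebral projection neurons, was at 62.9 ± 11.2 and 42.9 ± 8.62 CPM (SD, n = 4 each) in control and mutant (edgeR, adjusted p = 0.149). *Otx1*, a homeodomain gene, was at 13.9 and 17.5 CPM (edgeR, adjusted p = 0.219).

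Of 29 signals of the patterning centres and genes that respond to them, 27 were tested. *Fgf8* and *Fgf17*, ligands of the rostral centre, had too few counts. *Rspo2*, which encodes a secreted enhancer of WNT signaling, was the only one called and rose by 1.35 on the log2 scale (edgeR, adjusted p = 0.00202). *Bmp2* was at 1.64 and 2.72 CPM and *Sfrp2*, a WNT antagonist of the lateral patterning centre, at 11.7 and 15.3 CPM (edgeR, adjusted p = 0.209 and 0.32). Of the 27 genes, 19 had a log2 fold change above 0, as did 50.9% of all genes.

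Of 23 genes that are expressed by regions in the perinatal cortex, 1 passed the threshold. *Id2*, a helix-loop-helix inhibitor with sharp regional borders in cortical layers, fell by 0.62 on the log2 scale (edgeR, adjusted p = 0.0457). Its control libraries were at 436, 406, 458 and 385 CPM and its dcKO_Nex-Cre libraries at 250, 239, 257 and 352 CPM, without overlap. No gene of the 4 lists was called lower when any 1 of the 4 control libraries, or dcKO_Nex-Cre replicate 2 or 3, was omitted, so the call of *Id2* was lost there. *Crym* was at 121 ± 15.6 and 83.7 ± 10.1 CPM (SD, n = 4 each), with an adjusted p of 0.0504 from edgeR. *Cdh8*, a cadherin expressed in frontal and motor cortex, was at 101 ± 6.45 and 128 ± 8.67 CPM (SD, n = 4 each), with an adjusted p of 0.0609 from edgeR. At an unadjusted p under 0.05, 3 genes of this list were higher and 4 lower, beside 6.59% and 7.05% of all genes. The groups did not overlap for 3 above and 3 below the control, beside 3.99% and 4.01% of all genes. The median log2 fold change was 0.073.

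Of 21 cofactors and relatives of the 10 genes, 19 were tested and none passed the adjusted threshold. In edgeR 1 was higher and 2 were lower at an unadjusted p under 0.05, beside 6.59% and 7.05% of all genes. *Rlim*, which encodes a ubiquitin ligase that acts on LIM cofactors, was at 60.6 and 70.9 CPM (edgeR, adjusted p = 0.206). *Ldb2*, a cofactor that binds LIM domains, was at 117 and 98.4 CPM, and *Dmrt2* at 4.37 and 2.58 CPM (edgeR, adjusted p = 0.249 and 0.176). The median log2 fold change of the list was -0.017.

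**Figure D5:**
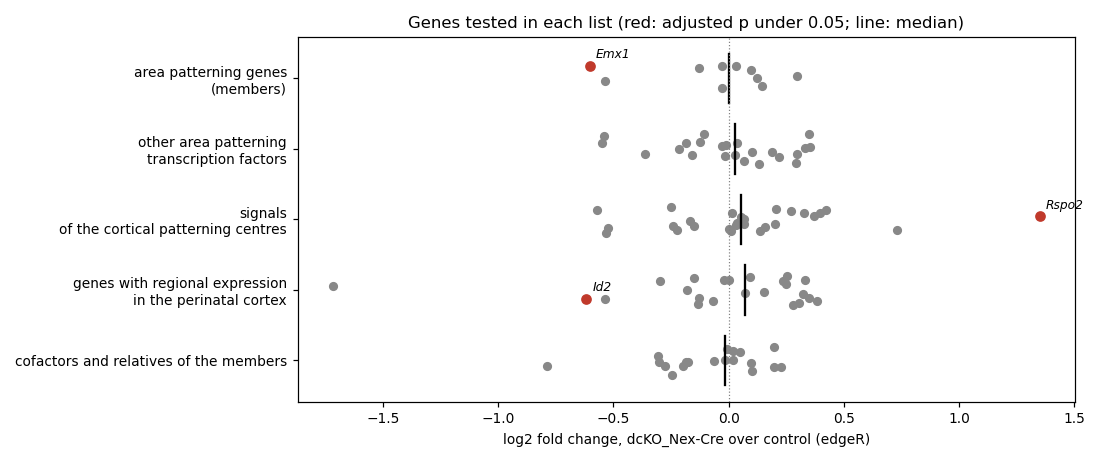
Log2 fold change, dcKO_Nex-Cre over control (x axis, edgeR), of every tested gene in the 10 members and the 4 lists, 1 point per gene with a random vertical offset, in red and named where the adjusted p was under 0.05, with the median of each list as a line. *Emx1*, *Rspo2* and *Id2* are the genes called, and all medians lie between -0.017 and 0.073.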

How the data were processed

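Per the labels, RNA was isolated with TRIZOL from cortex at P1 and made into TruSeq RNA libraries. The values the authors deposited are counts of reads for each Ensembl gene, not normalized, in 1 file for each of the 8 samples. The processing notes name the build mm10. The aligner, the counting program, the annotation and the strand setting are not given in the sources used here. Gene names, positions and exon lengths came from GENCODE M21 (GRCm38), which matched 48349 of the 48709 genes.

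Counts were filtered by filterByExpr and scaled by TMM in edgeR 4.0.16 (R 4.3.3). Control and dcKO_Nex-Cre libraries were compared by the robust quasi-likelihood test, two-sided and without covariates, with Benjamini-Hochberg adjustment over 16287 genes and a threshold of 0.05. Standard errors follow from the F statistic. Single ratios were compared by exact permutation over all 70 regroupings. Sums of markers are sums of CPM. Tests were checked on simulated counts. Alternatives were DESeq2 1.42.0, limma-voom (limma 3.58.1), other scalings and filters, a replicate block, lane tag 2 alone, and each library left out.

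The members and lists were chosen with earlier results of these data known. From the 4 lists, the text names each gene with an adjusted p under 0.05 and otherwise the genes with the smallest p, up to 3. One result that this rule would name is not reported here. Replicates of a group differed by at least 3.77 times counting noise (chi-square per degree of freedom), so none were copies.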

Additional observations from a re-analysis of the deposited data

Results flagged for a closer look

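Each of the 10 genes gives a group of 4 control and a group of 4 mutant CPM values, 20 groups in all. In 2 of these, 1 library stood well apart by Dixon's gap test, whose threshold is passed by chance alone in about 1 in 20 groups. In control replicate 2 *Lmo3* was measured at 177 CPM, against 259 to 265 CPM in the remaining controls. The log2 fold change without that library was -0.14. *Dmrta2* had 3.16 CPM in dcKO_Nex-Cre replicate 1, below the 4.16 to 4.26 CPM of the remaining mutant libraries. Without it the log2 fold change was -0.030.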

How the results depend on the processing

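Over all genes, edgeR called 61 higher and 83 lower, DESeq2's Wald test 215 and 279, edgeR without a filter 109 and 150, with the replicate block 21 and 33, and within lane tag 2 140 genes higher. Leaving out each library gave 9 to 625 higher and 9 to 650 lower, the upper ends without dcKO_Nex-Cre replicate 4. Of the members, 0 were called higher and 1 lower. DESeq2's Wald test called 1 higher, the block and lane tag 2 called 0 lower, and the fits without 1 library called 0 to 1 in each direction. At an unadjusted p under 0.05, the members were 1 higher and 2 lower, with 1 lower without a filter and within lane tag 2, and 1 and 1 to 2 without 1 library. In the 4 lists, 1 gene was called higher and 1 lower. DESeq2's Wald test called 3 and 5, lane tag 2 3 higher, 2 lower were called without a filter, with 10 counts in every library and with the block, and the fits without 1 library called 1 to 11 higher and 0 to 3 lower. Without control replicates or dcKO_Nex-Cre replicates in turn, the log2 fold changes ranged from -0.18 to 0.10 for *Nr2f1*, -0.14 to 0.049 for *Lmo3*, -0.043 to 0.15 for *Lhx2*, -0.051 to 0.29 for *Sp8* and -0.038 to 0.25 for *Dmrt3*, and the log2 ratio of *Dmrta2* to *Dmrt3* from -0.39 to 0.042. *Lmo3* was at 0.032 within lane tag 2. The cause of these differences was not tested.

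The deviations of same-numbered libraries had correlations across genes from -0.14 to 0.13. No library correlated best with its own number, and the numbers were not taken as pairs. With the replicate block, *Emx1* had a log2 fold change of -0.60 (edgeR, adjusted p = 0.0817). The ratios and their alternatives were added after the data were seen.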

Other observations

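*Cyp26b1*, which encodes an enzyme that degrades retinoic acid, had the lowest log2 fold change of the 23 genes with regional expression and was chosen after its values were seen. It was at 36.9, 16.6, 34.3 and 38.2 CPM in the control and at 17.2, 9.57, 6.31 and 4.49 CPM in the dcKO_Nex-Cre libraries. The log2 fold change was -1.72 (standard error 0.40, edgeR, adjusted p = 0.0957), and dcKO_Nex-Cre replicate 1 overlapped with control replicate 2. Choroid plexus markers, summed, came to 23.6 to 1349 CPM in control and 4.49 to 561 CPM in mutant libraries.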
